A study of Mus musculus with 2 samples.

Results

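Rab, Arl and Arf genes encode small GTPases that mark the membranes of a cell and direct traffic between them. The genes described here are all rows of the deposited table whose mouse symbol is Rab, Arl or Arf followed by a number and at most 1 letter. The rule found 81 of the 18724 genes in the table, made up of 57 Rab, 18 Arl and 6 Arf genes, all protein coding. The annotation holds 85 such symbols, and Arl11, Arl13a, Rab33a and Rab39 were not analysed here. The cells were luminal epithelium purified by flow sorting from prostates of mice aged 18 weeks, and they were split by a GFP label that cell division dilutes. Label-retaining cells were GFP-positive and non-retaining cells were sorted as GFP-negative, and 1 library of total RNA was made from each. No source used here states how the label was made, its promoter, the strain, the number of mice pooled or the surface markers of the sort.

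A GTPase of this kind is switched on by an exchange factor, binds effectors such as tethers and motors while it carries GTP, and is switched off by a GTPase-activating protein. Rab proteins are held on membranes by prenyl groups, most Arf proteins by a myristoyl group. In glands, Rab3 and Rab27 proteins work on secretory granules, Rab11 and Rab25 on recycling to the apical surface, and Arf1 recruits the coats of Golgi vesicles. The luminal cell of the prostate is a secretory cell, and the comparison asks how these genes differ between luminal cells that kept the label and luminal cells that did not.

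Because each group is a single library, no replicate check and no test between groups could be made, values describe the libraries alone, and every interval below covers counting error only. The table holds 50689229 reads for label-retaining and 48334265 for non-retaining cells. Marker genes showed that the sorts differed in more than the label. Of 12 luminal markers, 6 were called higher in label-retaining cells and 0 lower, by the rule given in the next paragraph, with summed normalised counts of 2699572 in label-retaining and 685829.6 in non-retaining cells. All 8 basal markers were lower (14304 summed normalised counts in the label-retaining library against 274103 in the non-retaining library), and so were all 6 smooth muscle markers (1132 in label-retaining and 10699 in non-retaining cells). Of 11 leukocyte markers 6 were lower, among them Gzma at 0 reads in the label-retaining library, and Cd52 and Lyz2 were higher. All 11 summed to 8198 in label-retaining and 17299.9 in non-retaining cells, and Cd52 alone supplied 6804 in label-retaining and 1965 in non-retaining cells. Of 5 fibroblast markers 2 were lower (Dcn at -4.09 and Pdgfra at -4.68 on the log2 scale) and 2 higher (Lum at 1.53 and Col1a1 at 1.06), and they summed to 12769 in label-retaining and 89519 in non-retaining cells. Of 5 endothelial markers 4 were lower, with sums of 496 in label-retaining and 2230.5 in non-retaining cells. The 7 seminal vesicle markers were all higher (83946 in label-retaining and 767 in non-retaining cells), with Svs3a and Svs6 at 0 reads in the non-retaining library. In bulk RNA, fewer cells of a type and less RNA per cell cannot be told apart.

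The share of GTPase genes called was close to that of all genes, while single members lay far apart. Normalised counts are reads divided by the size factor the authors used for the library. A gene is called higher or lower here when its normalised counts were at least 2-fold apart and the exact 95% counting interval of the ratio excluded equality. The rule called 12 of the 81 members higher in the label-retaining library (14.8%) and 13 lower (16.05%). Over all 17183 genes with a mean of at least 10 normalised counts, the same rule called 14.5% higher and 19.4% lower. All 81 members reached that mean and none had 0 reads in a library. The median log2 ratio of the members, label-retaining over non-retaining, was 0.20, beside -0.01 for all measured genes. Ratios lay above 0 for 48 members and below 0 for 33, beside 8551 and 8632 of all measured genes. The members took 0.478% of the reads in the label-retaining library and 0.488% in the non-retaining library.

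Levels of different genes are compared per kilobase of exon. Arf1, which recruits the COPI coat and clathrin adaptors at the Golgi, and Arf6, which works at the plasma membrane and on endosomes, led both libraries. Arf1 had 10658 normalised counts per kilobase in the label-retaining library and 8211 in the non-retaining library. Arf6 had 8651 in label-retaining and 9093 in non-retaining cells on the same scale. The next places differed. In the label-retaining library they were held by Rab1a, Arl14 and Rab7, with 4332, 4199 and 3735 normalised counts per kilobase. In the non-retaining library they were held by Arl4d, Rab7 and Rab10, with 3766, 3669 and 3028. The 5 leading genes carried 39.0% of the summed per-kilobase level of all members in the label-retaining library and 39.2% in the non-retaining library. Arl14 stood at rank 4 of 81 in label-retaining and at rank 49 in non-retaining cells, and Arl4d at rank 19 in label-retaining and rank 3 in non-retaining cells. At the other end were Rab37 with 2.43 and Rab3c with 3.89 normalised counts per kilobase in the label-retaining library, and Rab3c with 1.28 and Rab44 with 2.69 in the non-retaining library.

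**Figure D1:**
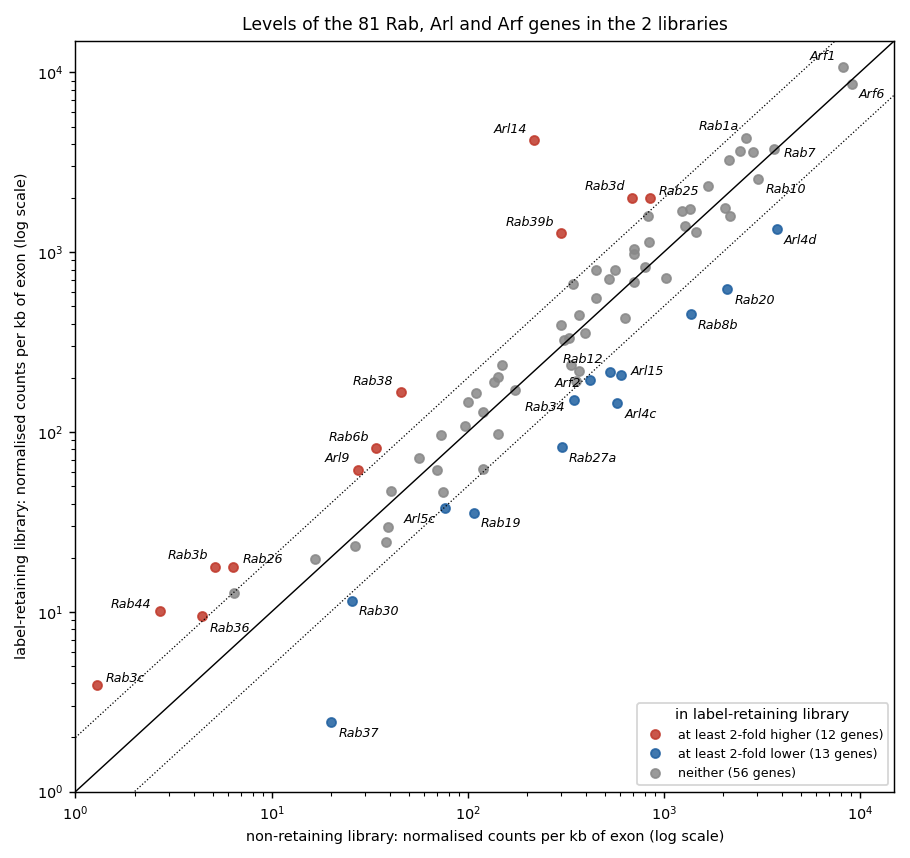
Level of each of the 81 genes in the label-retaining library (vertical axis) against the non-retaining library (horizontal axis), in normalised counts per kilobase of exon on log scales. Each point is 1 gene, the solid line marks equality and the dotted lines 2-fold differences; Arl14 lies farthest above the line, at 4199 in label-retaining and 218 in non-retaining cells, and Rab37 farthest below it.

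Arl14 was the member with the ratio farthest from equality. In human dendritic cells ARL14 is known to act on the transport of MHC class II vesicles along actin. The gene (ENSMUSG00000098207.1, chromosome 3, 69222419 to 69223618, plus strand, mm10) had 5038 normalised counts in the label-retaining library, against 261 in the non-retaining library. The ratio was 19.3-fold, or 4.27 on the log2 scale (counting interval 4.10 to 4.45). Seminal vesicle markers also stood higher in this library, by a median log2 ratio of 6.62, and their part in the result was not tested. Of the other members called higher, Rab39b, which acts in transport through the Golgi and in autophagy, came next. It had 4361 normalised counts in label-retaining and 1017 in non-retaining cells, a log2 ratio of 2.0997 (2.01 to 2.20). An antisense gene, Gm15063, covers 18.6% of the exon bases of Rab39b, and although the kit keeps strand, per the labels' protocols, the sources used here do not say whether the counting used it.

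The sequences before the start sites of the members farthest apart are shown because the data place these genes at opposite ends of the list. They are the 200 bases upstream of the annotated start, from RefSeq on GRCm38.p6, for the 3 higher and the 3 lower members whose interval lay farthest from equality among those with 1 start site in that table. Capitals mark the letters TATAAA, which occur in the core promoter element called the TATA box, or their reverse complement TTTATA. All 3 marked stretches of Rab39b read TTTATA, and the 1 of Arl14 reads TATAAA. The marks show letters at any distance from the start, and whether they act as a TATA box was not tested. The windows are chr3:69222219-69222418 on the plus strand for Arl14, and chrX:75578232-75578431 and chr9:21918184-21918383 on the minus strand for Rab39b and Rab3d, all higher in the label-retaining library. The windows of the lower members are chr1:88702192-88702391 for Arl4c, chr8:11478641-11478840 for Rab20 and chr9:66919706-66919905 for Rab8b, all on the minus strand.
Arl14: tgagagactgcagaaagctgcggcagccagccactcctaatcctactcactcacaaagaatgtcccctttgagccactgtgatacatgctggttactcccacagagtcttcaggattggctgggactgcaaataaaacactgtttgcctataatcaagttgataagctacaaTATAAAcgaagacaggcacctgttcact
Rab39b: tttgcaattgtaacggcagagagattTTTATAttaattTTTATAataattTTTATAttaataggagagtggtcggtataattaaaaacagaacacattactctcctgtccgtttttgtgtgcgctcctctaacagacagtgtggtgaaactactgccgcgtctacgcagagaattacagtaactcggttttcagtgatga
Rab3d: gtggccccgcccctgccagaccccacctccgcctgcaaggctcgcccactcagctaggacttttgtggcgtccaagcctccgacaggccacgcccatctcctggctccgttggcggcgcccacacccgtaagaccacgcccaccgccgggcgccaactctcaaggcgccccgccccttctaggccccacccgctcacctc
Arl4c: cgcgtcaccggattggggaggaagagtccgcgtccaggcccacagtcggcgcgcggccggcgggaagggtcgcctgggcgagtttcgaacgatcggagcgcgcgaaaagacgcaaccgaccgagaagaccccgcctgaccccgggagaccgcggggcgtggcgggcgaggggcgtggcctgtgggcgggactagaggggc
Rab20: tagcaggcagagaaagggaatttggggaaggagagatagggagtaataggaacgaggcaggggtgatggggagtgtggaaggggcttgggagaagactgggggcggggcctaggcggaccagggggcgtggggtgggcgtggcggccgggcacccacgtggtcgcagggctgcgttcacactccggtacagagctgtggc
Rab8b: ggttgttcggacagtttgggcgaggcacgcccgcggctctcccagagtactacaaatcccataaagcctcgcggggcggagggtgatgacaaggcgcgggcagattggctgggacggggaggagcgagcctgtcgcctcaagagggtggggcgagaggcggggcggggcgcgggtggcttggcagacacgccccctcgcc

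The windows of Arl14 and Rab39b had GC contents of 46.0% and 36.0% and held TATAAA or TTTATA 1 and 3 times. The windows of Rab3d, Arl4c, Rab20 and Rab8b had GC contents of 71.5%, 73.5%, 65.5% and 69.5% and held these letters 0 times. Over the 54 members with 1 start site in the table, the median GC content was 50.8% for the 8 called higher, 68.5% for the 7 called lower and 64.0% for the 39 called neither, beside 53.0% for all 32851 windows. Those 32851 windows also came from genes with several start sites and were not limited to measured genes, here and in the shares below. TATAAA, read on both strands, occurred in 3 of the 8 higher and 1 of the 7 lower windows, and in 9.96% of all windows. The E-box letters CANNTG, which basic helix-loop-helix factors can bind, occurred in 5 of the 8 higher and 2 of the 7 lower windows and in 58.2% of all windows. The letters AGAACA, a half-site of the androgen response element, occurred on either strand in 3 of the 8 higher and 0 of the 7 lower windows, and in 12.9% of all windows. CCACG, on either strand, occurred in 1 of the 8 higher and 3 of the 7 lower windows, and in 24.4% of all windows. Of the other letters searched on both strands, CCAAT occurred in 1 of the 8 higher and 4 of the 7 lower windows and in 29.3% of all windows. Among the forms that CANNTG includes, CAGCTG occurred in 2 higher and 0 lower windows and in 10.9% of all windows. CACGTG occurred in 0 higher windows and 1 lower window and in 5.26% of all windows, and CATATG in 0 of either and in 2.65% of all windows. Over the windows of all 54 members, CCAAT occurred in 44.4%, CCACG in 40.7% and CANNTG in 48.1%. TATAAA occurred in 7.41% of those 54 windows, AGAACA in 11.1%, CAGCTG in 9.26%, CACGTG in 13.0% and CATATG in 0%. These counts describe letters in a window and do not show binding.

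Rab genes of secretory vesicles and exocytosis held members at both ends. Of 13, 5 were called higher in the label-retaining library (38.5%), 3 lower (23.1%) and 5 neither, and their median log2 ratio was 0.40. The shares of all measured genes, 14.5% higher and 19.4% lower, stand beside this and every role group below. Among the 81 members, 6 of the 11 with a mean under 100 normalised counts were called higher, and 6 of the other 70. Of all genes with a mean of at least 100, 13.3% were called higher, and the share under 100 was not computed. Rab3d, the Rab3 form of zymogen and other exocrine granules, was the abundant member called higher. It had 8433 normalised counts in the label-retaining library, against 2902 in the non-retaining library, a log2 ratio of 1.54 (1.48 to 1.60). The gene lies on the minus strand of chromosome 9, from 21907491 to 21918192 (ENSMUSG00000019066.12, mm10). Its relatives Rab3b and Rab3c, best known from nerve endings and endocrine cells, were also called higher, but from few reads. Rab3b had 63 reads in label-retaining and 20 in non-retaining cells (log2 ratio 1.76, 1.04 to 2.59). Rab3c had 47 reads in label-retaining and 17 in non-retaining cells (1.57, 0.77 to 2.49). Rab3a, the main Rab of synaptic vesicles, was less than 2-fold apart at 367 normalised counts in label-retaining and 246 in non-retaining cells. All 4 Rab3 genes thus had more normalised counts in the label-retaining library. Among neuroendocrine markers 2 of 4 measured genes were higher and 1 lower, with sums over the 5 listed of 399 in label-retaining and 233 in non-retaining cells, and their part in the Rab3 values was not tested.

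Rab26, which acts on secretory granules of exocrine cells, had 51 reads in label-retaining and 20 in non-retaining cells (log2 ratio 1.46, 0.71 to 2.31). Traf7, on the same strand, covers 9.4% of the exon bases of Rab26, and the part of this overlap in its reads was not tested. Rab44, a large member of the family known from mast cells and osteoclasts, had 51 reads in label-retaining and 15 in non-retaining cells (1.86, 1.05 to 2.84). The intervals of both were wide because of the low counts.

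The lower members of the exocytosis group were Rab37, Rab27a and Rab8b. Rab37, found on granules of mast cells and other secretory cells, had 13 reads in the label-retaining library against 118 in the non-retaining library, a log2 ratio of -3.00 (-3.9999 to -2.22) and the lowest of all members. Rab27a, which docks melanosomes and the granules of cytotoxic lymphocytes and is mutated in the ashen mouse, had 319 normalised counts in the label-retaining library and 1169.8 in the non-retaining library. Its log2 ratio was -1.87 (-2.05 to -1.70). Rab8b, which with Rab8a carries vesicles from the Golgi to the plasma membrane, had 2138 normalised counts in label-retaining and 6503 in non-retaining cells (-1.60, -1.67 to -1.53). Of the 11 leukocyte markers, 6 were called lower as well and 2 higher. Gzmb, of cytotoxic lymphocytes, had 11 reads in label-retaining and 4705 in non-retaining cells. Ptprc, of leukocytes in general, had 208 normalised counts in label-retaining and 5882 in non-retaining cells. The part of leukocytes, and of basal cells, in the lower GTPase genes was not tested.

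The remaining members of the group were close to equality. Rab27b, which shares effectors with Rab27a, had 4215 normalised counts in label-retaining and 3192 in non-retaining cells (log2 ratio 0.40). Rab8a had 3870 in label-retaining and 3759.6 in non-retaining cells (0.04), and its interval, -0.02 to 0.11, held equality. Rab10, which acts in exocytosis and basolateral sorting, had 8966 in label-retaining and 10637 in non-retaining cells (-0.25). Rab13, of tight junction traffic, was low in both, at 142 in label-retaining and 160.1 in non-retaining cells, and its interval held equality.

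**Figure D2:**
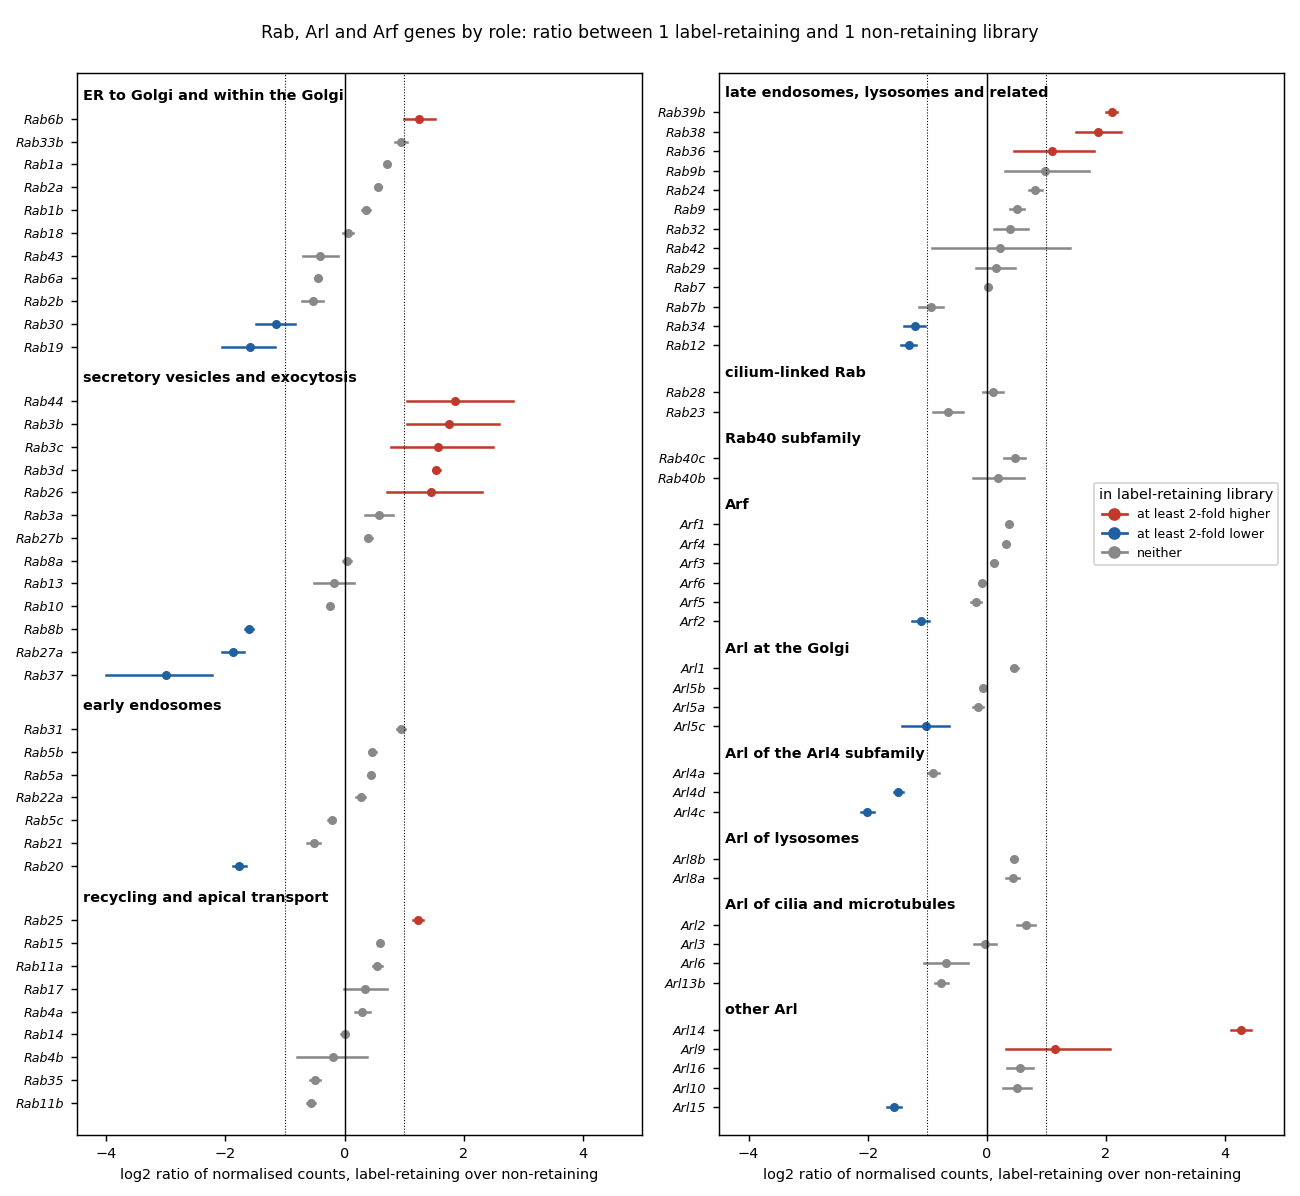
Log2 ratio of normalised counts, label-retaining over non-retaining, for each of the 81 genes, grouped by role. Points are ratios of 1 library to 1 library, bars their 95% counting intervals, and dotted lines 2-fold differences; the secretory group runs from Rab37 at -3.00 to Rab44 at 1.86, whereas the lysosomal Arl8a and Arl8b both lie near 0.45.

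Rab genes of recycling and apical transport showed 1 call. Rab25, the form of Rab11 found in epithelia, had 3331 normalised counts in the label-retaining library and 1416 in the non-retaining library (log2 ratio 1.23, 1.15 to 1.32). Of the ubiquitous Rab11 genes, Rab11a had 3102 in label-retaining and 2119.5 in non-retaining cells (0.55), and Rab11b 2622 in label-retaining and 3883 in non-retaining cells (-0.57). Their ratios had opposite signs, each less than 2-fold. Rab15, which slows recycling from endosomes, had the highest level per kilobase of the group in both libraries, and its normalised counts were 14984 in label-retaining and 9881 in non-retaining cells (0.60). Rab17, an epithelial Rab of apical recycling, was low at 143 in label-retaining and 112 in non-retaining cells, and its interval held equality. Rab4a, of fast recycling, had a log2 ratio of 0.30, while Rab14 lay at 0.01, Rab4b at -0.20 and Rab35 at -0.50. The value of Rab4b is uncertain, since genes on the same strand, Gm21983 among them, cover 65.0% of its exon bases.

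Of the 7 early endosome genes, Rab20 alone was called, as lower, and the median log2 ratio was 0.27. Rab5a and Rab5b, which drive fusion of early endosomes, had log2 ratios of 0.44 and 0.47, and Rab5c had one of -0.22. Rab5a counted 6027 in label-retaining and 4437 in non-retaining cells, and Rab5c 3876 in label-retaining and 4510.1 in non-retaining cells. Rab31, of transport between the Golgi and endosomes, was just under the 2-fold threshold at 6097 in label-retaining and 3158 in non-retaining cells (0.95, 0.89 to 1.01). Rab22a (0.27) and Rab21 (-0.52), both of endosomes, were not called. Rab20, which is found on endosomes and phagosomes, was called lower with 864 normalised counts in label-retaining and 2939 in non-retaining cells (-1.77, -1.88 to -1.66). The antisense gene E230013L22Rik covers 25.6% of its exon bases and had 135 reads in label-retaining and 116 in non-retaining cells.

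Among the 13 genes of late endosomes, lysosomes, autophagosomes and melanosome-like organelles, 3 were called higher and 2 lower. Beside Rab39b these included Rab38, which with Rab32 builds melanosomes and other lysosome-related organelles and is mutated in the chocolate mouse. Rab38 had 263 normalised counts in label-retaining and 71.9 in non-retaining cells (log2 ratio 1.87, 1.51 to 2.26). Rab32 had 226 in label-retaining and 171 in non-retaining cells (0.40, 0.11 to 0.69). Rab36 was called higher from 59 reads in label-retaining and 30 in non-retaining cells (1.10, 0.45 to 1.79). Rab7, the central Rab of late endosomes, had 9748 normalised counts in label-retaining and 9575 in non-retaining cells, and its interval held equality (0.03, -0.01 to 0.07). Rab12, which sends receptors to lysosomes, was called lower at 654 in label-retaining and 1622 in non-retaining cells (-1.31, -1.44 to -1.18). Rab34, which positions lysosomes and acts in cilium formation, was called lower at 360.2 in label-retaining and 833 in non-retaining cells (-1.21, -1.39 to -1.03). The other 6, Rab9b (0.98), Rab24 (0.82), Rab9 (0.50), Rab42 (0.22), Rab29 (0.15) and Rab7b (-0.94), were not called. Rab9 and its relative Rab9b act in transport from late endosomes to the Golgi. An antisense overlap with Prelid1 covers 62.4% of the exon bases of Rab24.

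The 11 genes that act between the endoplasmic reticulum and the Golgi were spread around equality, with 6 ratios above 0, 5 below and a median log2 ratio of 0.06. Rab1a, needed for transport out of the endoplasmic reticulum, had 16458 normalised counts in label-retaining and 9992 in non-retaining cells (log2 ratio 0.72, 0.69 to 0.75). Rab1b (0.36) and Rab2a (0.57) lay on the same side, Rab6a, which works in transport through the Golgi, on the other at -0.45. Rab33b, a Golgi Rab that binds the autophagy protein Atg16l1, was just under 2-fold at 0.95, and Rab18 (0.06), Rab43 (-0.41) and Rab2b (-0.54) were not called. Gm45140, on the same strand, covers 75.4% of the exon bases of Rab43, so the split of reads between these genes is uncertain. Rab6b, the Rab6 form best known from brain, was the only one of the 11 called higher, at 411 in label-retaining and 172 in non-retaining cells (1.26, 1.01 to 1.51). Rab19 and Rab30 were the lower calls. Rab19 had 56 reads in label-retaining and 186 in non-retaining cells (-1.59, -2.06 to -1.16), and Rab30, a Golgi Rab, 111 reads in label-retaining and 271 in non-retaining cells (-1.15, -1.49 to -0.83). The cilium-linked Rab23 and Rab28 and the Rab40 genes Rab40b and Rab40c were not called, with log2 ratios from -0.64 to 0.47.

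Of the 6 Arf genes, 5 lay within 1.5-fold and Arf2 was called lower. Arf2 is a Golgi Arf close to Arf1 and Arf3 that humans lack. It had 582 normalised counts in the label-retaining library and 1258 in the non-retaining library (log2 ratio -1.11, -1.25 to -0.97). Arf1 (0.38), Arf4 (0.33) and Arf3 (0.12) had positive ratios, and Arf6 (-0.07) and Arf5 (-0.18) negative ones. In normalised counts Arf1 had 22265 in label-retaining and 17153 in non-retaining cells, and Arf4 12959 in label-retaining and 10331 in non-retaining cells.

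The Arl4 genes, which recruit cytohesins to the plasma membrane, all had fewer normalised counts in the label-retaining library. Arl4c had 792 in label-retaining and 3182 in non-retaining cells (log2 ratio -2.01, -2.12 to -1.89). Arl4d had 1854 in label-retaining and 5204 in non-retaining cells (-1.49, -1.57 to -1.41). Arl4a had 1486 in label-retaining and 2763 in non-retaining cells (-0.89, -0.99 to -0.80) and was not called. Summed over the 3 genes, the level was 4132 normalised counts in label-retaining and 11149 in non-retaining cells. The basal markers had a median log2 ratio of -4.496, and their part in these values was not tested.

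Of the 15 Arl genes outside the Arl4 group, 2 were called higher (Arl14 and Arl9), 2 lower (Arl15 and Arl5c) and 11 neither. Arl8a and Arl8b, which move lysosomes along microtubules, both lay near 0.45 on the log2 scale, with Arl8b at 7580.0 normalised counts in label-retaining and 5523 in non-retaining cells. Arl1, which brings golgins to the trans-Golgi, had a log2 ratio of 0.46. Arl3 and Arl13b, which act in cilia, had ratios of -0.03 and -0.76, and Arl13b had 1108 normalised counts in label-retaining and 1878 in non-retaining cells. Arl2 (0.66), Arl6 (-0.68), Arl16 (0.55), Arl10 (0.51), Arl5b (-0.06) and Arl5a (-0.15) were not called. Arl5c was called lower at 78 reads in label-retaining and 174 in non-retaining cells (-1.02, -1.43 to -0.63). Arl15, linked in humans to insulin sensitivity, was called lower at 725 normalised counts in label-retaining and 2135 in non-retaining cells (-1.56, -1.68 to -1.44). Arl9 was called higher from 37 reads in label-retaining and 18 in non-retaining cells (1.15, 0.32 to 2.07), and an antisense gene covers 43.9% of its exon bases.

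Genes of the same Rab or Arl number, and the 6 Arf genes, were compared in pairs as families. The difference between log2 ratios of genes in the same libraries does not depend on how the libraries are scaled. In the 16 families with more than 1 member there were 41 pairs, of which 12 pairs in 8 families were at least 2-fold apart with a counting interval that excluded equality. The same share over pairs of other genes was not computed. Of the 12 pairs, 4 were Arf genes set against Arf2. The pair farthest apart was Rab27b over Rab27a, by 2.27 on the log2 scale (2.09 to 2.46). Rab27b made up 82.7% of the per-kilobase level of that family in the label-retaining library and 49.8% in the non-retaining library. Such shares depend on the annotated exon length, 10679 bases for Rab27b and 3879 for Rab27a. Before division by length, Rab27b had 4215 normalised counts and Rab27a 319 in label-retaining cells. In non-retaining cells they had 3192 and 1169.8. Rab6b over Rab6a was 1.70 (1.45 to 1.957), although Rab6b made up 4.90% of its family in the label-retaining library and 1.55% in the non-retaining library. Rab8a over Rab8b was 1.65 (1.55 to 1.74). Rab8a held 64.7% of the Rab8 level in label-retaining and 36.9% in non-retaining cells, so that the leading gene of the family differed between the libraries. Rab11a over Rab11b was 1.12 (1.01 to 1.22), with Rab11a at 70.8% in label-retaining and 52.8% in non-retaining cells. Rab2a over Rab2b was 1.11 (0.92 to 1.29), and an antisense overlap covers 64.0% of the exon bases of Rab2b.

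The abundant member of the Rab3 and Arl4 families was the same in both libraries. Rab3d held 91.5% of the Rab3 level in label-retaining and 85.6% in non-retaining cells, and Arl4d 79.9% of the Arl4 level in label-retaining and 80.1% in non-retaining cells. Arl8b over Arl8a was 0.02 (-0.10 to 0.13) and Rab5b over Rab5a 0.03 (-0.06 to 0.11), intervals that held equality. Arl4a over Arl4c was 1.11 (0.97 to 1.25). The Rab3 pairs at least 2-fold apart rested on few reads of Rab3b and Rab3c. Rab3b over Rab3a was 1.21 (0.45 to 1.97) and Rab3c over Rab3a 1.02 (0.19 to 1.85). Rab3d over Rab3a, at 0.96 (0.72 to 1.19), was just under 2-fold. Within the Arf family each of Arf1, Arf4, Arf3 and Arf6 was at least 2-fold apart from Arf2, with Arf1 over Arf2 at 1.49 (1.35 to 1.63).

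**Figure D3:**
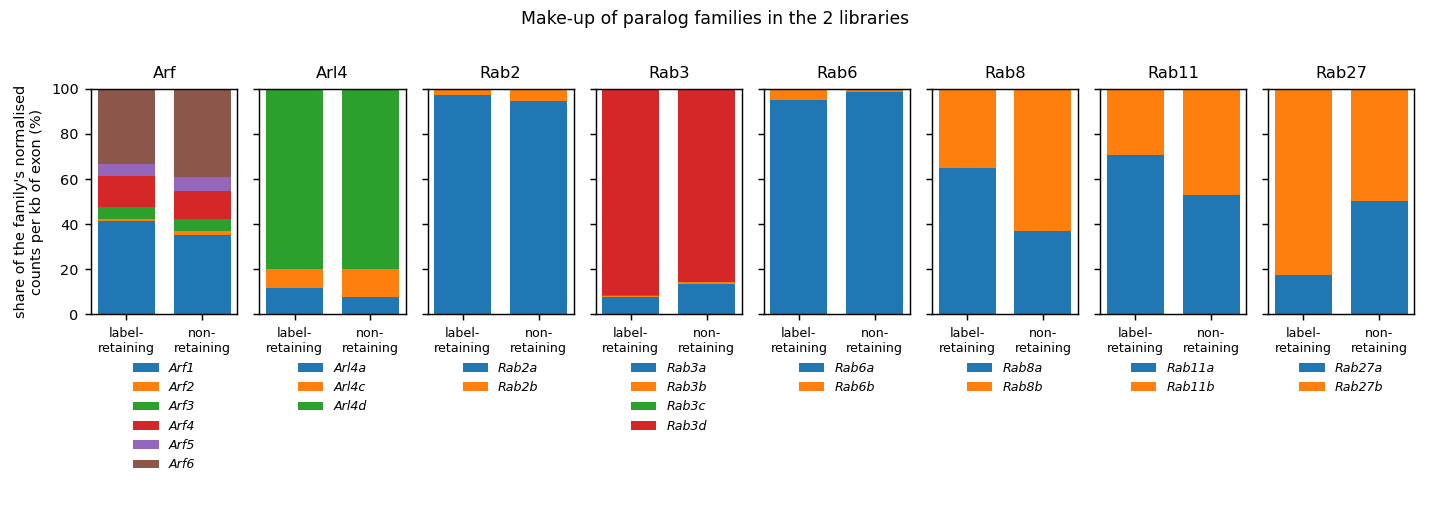
Share of each gene in the summed normalised counts per kilobase of exon of its family (vertical axis, percent), for the 8 families with a pair at least 2-fold apart, with the label-retaining library left and the non-retaining library right in each panel. In the Rab27 panel Rab27b fills 82.7% of the label-retaining and 49.8% of the non-retaining bar, and in the Rab8 panel the larger share is that of Rab8a in the label-retaining and of Rab8b in the non-retaining bar.

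The proteins that serve these GTPases were examined as lists. Of all measured genes, 14.5% were called higher and 19.4% lower. The lists were chosen with earlier results of these data known, so their shares describe the lists and do not test them. Of 49 Rab effectors, 15 were called higher in the label-retaining library, 5 lower and 29 neither, with a median log2 ratio of 0.39. Myo5c, a myosin motor of secretory granules in glands, had 14529 normalised counts in label-retaining and 1984 in non-retaining cells (log2 ratio 2.87, 2.81 to 2.94). Exph5, which encodes the Rab27 effector Slac2-b, had 1651 in label-retaining and 243 in non-retaining cells (2.76, 2.58 to 2.96). Mlph, which links Rab27 to myosin and was chosen after its values were seen, had 3062 in label-retaining and 658 in non-retaining cells (2.22). Sytl2, another Rab27 effector, stood on the other side at 36.9 in label-retaining and 654 in non-retaining cells (-4.13, -4.66 to -3.67). Rab11fip1, an effector of Rab11 and Rab25, had the most normalised counts of the list, with 36887 in label-retaining and 19522 in non-retaining cells (0.92).

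Of 36 Rab GTPase-activating proteins, 10 were called higher and 4 lower. Sgsm3 was higher at 895 normalised counts in label-retaining and 145 in non-retaining cells (log2 ratio 2.63), and Rab3gap2, a subunit of the Rab3 GTPase-activating complex, at 11451 in label-retaining and 4029.8 in non-retaining cells (1.51). Tbc1d10c, a gene of lymphocytes, was lower with 8 reads in label-retaining and 293 in non-retaining cells (-4.98, -6.29 to -4.06), and Tbc1d2b was lower at -2.05. Of 32 Rab exchange factors, 1 was called higher and 8 lower, with a median log2 ratio of -0.19. Rin3, which activates Rab5, had 152 normalised counts in label-retaining and 2090.4 in non-retaining cells (-3.78), and Dennd2c 835 in label-retaining and 8728 in non-retaining cells (-3.38). Dennd1c was lower from 12 reads in label-retaining and 155 in non-retaining cells (-3.50). St5, with the highest mean of the libraries' normalised counts in the list, was not called (-0.57), and neither library alone had St5 at the top.

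Of 15 measured Arf exchange factors, 4 were called higher and 3 lower. Arfgef3 had 11323 normalised counts in label-retaining and 1375 in non-retaining cells (log2 ratio 3.04, 2.96 to 3.12). Cyth4, a cytohesin of blood cells, was lower at 38.9 in label-retaining and 607 in non-retaining cells (-3.95), and Psd2 was lower from 17 reads in label-retaining and 223 in non-retaining cells (-3.54). Arfgef1, with the highest mean of both libraries, was not called (0.30), and in the label-retaining library Arfgef3 and Gbf1 had more normalised counts. Arf and Arl GTPase-activating proteins had 4 higher and 4 lower of 26, with Arfgap3, of the Golgi, at 12069.5 normalised counts in label-retaining and 3991 in non-retaining cells (1.60). Agap2 (-4.90) and Acap1 (-4.18), both known from blood or nerve cells, were the lower members farthest apart. Arf and Arl effectors had 3 higher and 1 lower of 14, with the golgin genes Golga4 (1.28) and Golga1 (1.23) higher and Pld1, a phospholipase activated by Arf1, lower (-2.93). The list of prenylation and membrane cycling had 0 higher and 1 lower of 13, the lower one being Unc119 (-1.47), and Gdi2, which extracts Rab proteins from membranes, had 11103.5 normalised counts in label-retaining and 11487 in non-retaining cells (-0.05). None of 9 related GTPases outside the rule was called, with a median of 0.47. In the label-retaining library 6 of 11 leukocyte markers were called lower and 2 higher, and all 8 basal markers were lower. The part of these cell types in the lower regulators was not tested.

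**Figure D4:**
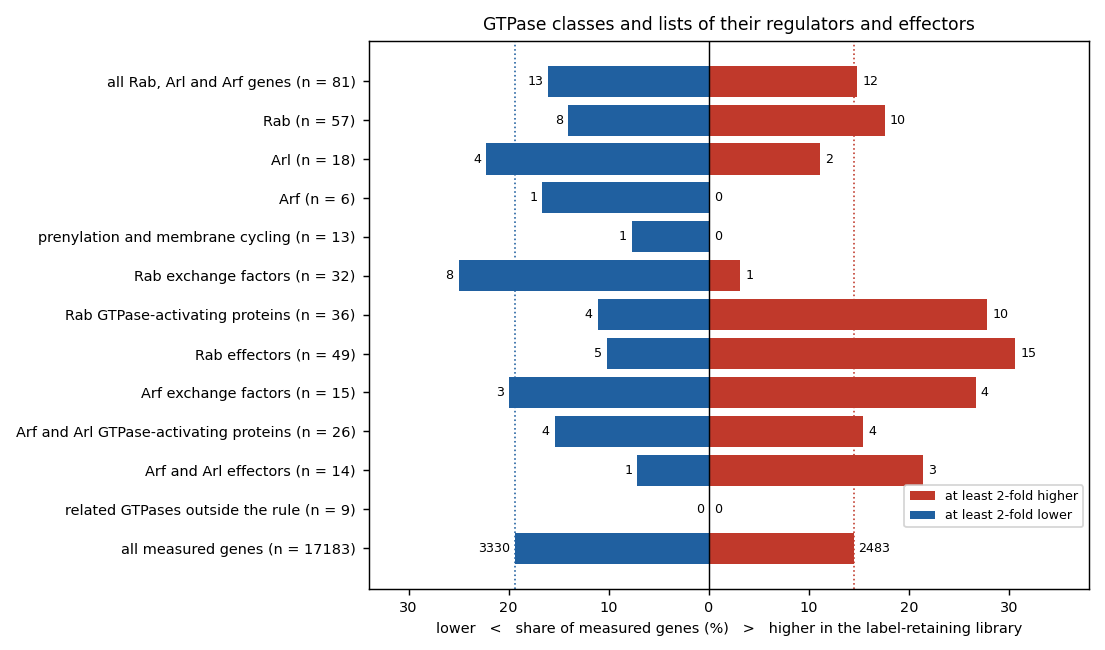
Share of measured genes called higher (right) or lower (left) in the label-retaining library, for the GTPase classes and the lists of their regulators and effectors, with the number of genes at each bar. Dotted lines mark the shares of all 17183 measured genes, 14.5% higher and 19.4% lower. Rab effectors reach 15 of 49 higher and Rab exchange factors 8 of 32 lower, on lists chosen with earlier results of these data known.

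Dividing by all recovered reads instead of the deposited size factors lowers every log2 ratio by 0.20, and scaling on the luminal keratins Krt8 and Krt18 lowers every ratio by 0.76. Positive ratios smaller than these shifts, such as those of Rab1a, Rab1b, Rab2a, Arf1, Arf4, Rab27b and Arl8b under the keratin scaling, turn negative. Of the 12 higher members, Arl14, Rab39b, Rab38, Rab44 and Rab3b were still called under the keratin scaling, whereas Rab3d, Rab25, Rab6b, Rab26, Rab3c, Arl9 and Rab36 were not. Under the keratin scaling the Rab effectors had 8 higher and 13 lower of 49, and the Rab GTPase-activating proteins 3 higher and 7 lower of 36, and both medians were negative, at -0.37 and -0.40. The Rab exchange factors had 0 higher and 15 lower of 32 under it, and the Arf exchange factors 2 higher and 6 lower of 15. The Arf and Arl GTPase-activating proteins had 0 higher and 9 lower of 26, and the Arf and Arl effectors 0 higher and 4 lower of 14, so that Arfgap3, Golga4 and Golga1 were no longer called. Over all measured genes that scaling called 5.59% higher and 39.8% lower.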

How the data were processed

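The authors deposited 1 table with a value per Ensembl gene for each library. Per the submitters' processing notes, the build was mm10 and the tools were DESeq 1.16.0, HTSeq 0.6.0, Bowtie2 2.1.0, TopHat2 2.0.10 and CASAVA 1.8.2, with no role or setting stated. The deposited values are a signal, namely reads divided by 1 size factor per library (1.00 for label-retaining and 1.10 for non-retaining cells). Multiplied by that factor, 100% of the values were whole reads within 1e-06.

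Symbols, coordinates and exon lengths came from GENCODE M21. Log2 ratios used a pseudocount of 0.5 and carried exact Clopper-Pearson 95% intervals of the reads. Genes with a mean of at least 10 normalised counts were measured, and calls needed a 2-fold difference. Pairs of paralogs were compared by the log odds ratio of their reads with a Wald interval. Calculations used Python 3.11.15, pandas 2.3.3 and scipy 1.17.1, and the scaling alternative edgeR 4.0.16, and the steps were tested on simulated data. Members and lists were chosen with earlier results of these data known. Named members were all those called, the 5 with the highest level per kilobase in each library and a listed set of well-known genes; members outside that rule are given by ratio, and Rab15, Rab31 and Mlph were chosen after their values were seen. For each list of regulators, up to 3 called genes and the gene with the highest mean of both libraries were named. Symbols could not be assigned to 90 rows.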

Additional observations from a re-analysis of the deposited data

How the results depend on the processing

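Scaling on Krt8 and Krt18 moved the all-gene median log2 ratio to -0.77 and left 5 members called higher and 25 lower, with a member median of -0.56. Over all genes it called 5.59% higher and 39.8% lower. Scaling by all recovered reads gave 10 higher and 15 lower members, with 11.3% and 23.1% of all genes. TMM factors gave 12 higher and 13 lower members, with 14.6% and 19.3% of all genes. Requiring a mean of at least 100 normalised counts kept 70 members and called 6 higher and 12 lower, with 13.3% and 16.7% of all genes; the other 6 higher members have fewer counts. A threshold of 1.5-fold called 19 higher and 18 lower, with 24.2% and 26.8% of all genes, and one of 3-fold 5 higher and 6 lower, with 7.15% and 12.8% of all genes. A pseudocount of 5 gave 10 higher and 12 lower, with 13.6% and 18.4% of all genes. No paired analysis was possible because each group has 1 library. Leaving out a library was not possible for the same reason.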

Other observations

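Bhlha15, which encodes the factor Mist1 of secretory cells known to regulate Rab3d and Rab26 in the stomach, was looked up after its values were seen. It had 2863 normalised counts in label-retaining and 645 in non-retaining cells, a log2 ratio of 2.15 (counting interval 2.03 to 2.27). The part of Bhlha15 in the values of Rab3d and Rab26 was not tested. The 200 bases printed upstream of Rab3d held CANNTG 0 times. Bases outside that window were not searched, no window was printed for Rab26, and binding by Bhlha15 was not tested. Of the effectors of Rab27, also looked up after their values were seen, Sytl5 had 502 normalised counts in label-retaining and 102 in non-retaining cells, and Sytl4 329 in label-retaining and 78.2 in non-retaining cells. Myrip, which links Rab27a to myosin, had 17 reads in label-retaining and 91 in non-retaining cells. Not called were Sytl1, Rph3al, Unc13d and Sytl3, other Rab27 effectors of the list, with log2 ratios of 0.50 for Sytl1, -0.35 for Rph3al, -0.60 for Unc13d and -0.97 for Sytl3.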
